A study of Mus musculus with 9 samples.

Results

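The genes described here are named for the proteins of the cytosolic ribosome. They were chosen by name alone: the non-control probes of the array whose gene name is Rpl or Rps with a number, Rplp0 to Rplp2 or Rpsa, with pseudogene names left out, and for each gene name the probe that was brightest over the 9 arrays. This gave 85 gene names, 52 of the large and 33 of the small subunit, out of 37074 gene names on the array. They carry 184 probes, and 24 of them have a single probe. A gene was tested where its probe was well above background on every array of at least 1 group, which held for 80 of the 85 and for 5763 gene names in all.

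RNA from the livers of male C57BL/6N mice, labelled as 12 months of age, a time that the study's text instead counts from the injection, was hybridised to 1-colour Agilent mouse arrays, 3 arrays per group. The AAV-V mice had received the empty vector, a hepatocyte-specific adeno-associated virus (AAV) injected into the tail vein, and ate normal food. The AAV-GP73 mice ate the same food and carried that virus with mouse GP73, a Golgi membrane protein encoded by Golm1, so that the protein was raised mainly in hepatocytes. The AAV-V HFD mice carried the empty vector and ate a high fat diet (HFD), for which the study's text gives different durations in different places. The design asks which transcripts change with GP73, which with the diet, and whether GP73 and the diet differ in effect. Whether an array holds RNA from 1 mouse or a pool is not given in the sources used here, so that p-values measure the spread between these arrays.

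A ribosome translates mRNA into protein, and each of its subunits is built from ribosomal RNA and a fixed set of proteins, most of them needed in equal copies. Their mRNAs are among the most abundant in liver and share a promoter form and a 5′ terminal oligopyrimidine (TOP) tract, a run of C and T at the transcription start, through which the kinase mTOR and the binding protein Larp1 set how strongly they are translated. Array signal measures how much mRNA is present and not its translation.

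The stretch around the annotated transcription start is shown for 6 members because a TOP tract would lie there. The length of the run of C and T at this start differed between members, and 5 with long runs and 1 with a short run were chosen. Whether the annotated start is the one used in these livers was not tested. Each line gives the 10 bases before and the 20 from the start on, on the gene's strand, from RefSeq on GRCm38.p6, with the longest run of C and T in capitals. In order they lie at chr4:86857348-86857377 (minus strand), chr11:114668570-114668599 (plus), chr2:39005112-39005141 (minus), chr7:141447641-141447670 (plus), chr3:90213629-90213658 (minus) and chr11:101442235-101442264 (plus).
Rps6: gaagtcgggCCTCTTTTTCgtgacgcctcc
Rpl38: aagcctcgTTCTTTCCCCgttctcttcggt
Rpl35: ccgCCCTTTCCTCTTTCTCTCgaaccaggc
Rplp2: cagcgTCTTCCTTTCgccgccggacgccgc
Rps27: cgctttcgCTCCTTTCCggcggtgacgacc
Rpl27: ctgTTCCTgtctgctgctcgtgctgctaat
The first 5 carry runs of 9 to 18 pyrimidines across the start, whereas the run of Rpl27 has 5.

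Signals are given as log2 values after every array was shifted to the same 75th percentile over the 2669 probes well above background on all 9 arrays. The scale matters here, because the arrays differed in brightness: 10.2% to 10.75% of spots were above background in AAV-V, 16.0% to 18.4% in AAV-GP73 and 13.8% to 16.7% in AAV-V HFD. Signal does not give the abundance of one mRNA against another, so levels of different genes are not compared. The 10 hepatocyte markers were all tested, and 9 of them were above background on all 9 arrays, as fits the label liver. Their median difference from AAV-V was 0.11 in AAV-GP73 and -0.38 with the diet. Single markers ran from -1.59 to 2.46 in AAV-GP73 and from -2.03 to 1.40 with the diet. The single Golm1 probe was above background on 0 of 9 arrays and so checks nothing. AAV-V and AAV-GP73 shared a slide but lay in separate columns of it, and AAV-V HFD lay on another. GP73 and slide column therefore cannot be told apart, nor can diet and slide. In whole liver, fewer cells of a type and less RNA per cell cannot be told apart either.

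Ribosomal protein mRNAs sat above the AAV-V level in both kinds of fatty liver, by a small amount on the scale used. The per-array median over the 79 members above background on all 9 arrays, each gene set against its AAV-V mean, was 0.22, 0.17 and -0.39 on the AAV-V arrays. It was 0.68, 0.56 and 0.58 on the AAV-GP73 arrays. It was 0.98, 0.90 and 0.47 on the AAV-V HFD arrays. All 6 arrays of the treated groups thus lay above all 3 AAV-V arrays, and the third AAV-V array lay well below its group. Over the 2429 genes above background on all 9 arrays, the median went the other way: -0.03, -0.03 and 0.06 in AAV-V, -0.17, -0.14 and -0.28 in AAV-GP73, and -0.53, -0.36 and -0.24 in AAV-V HFD. The gap between members and these genes, which no shift of a whole array can alter, averaged 0.00 ± 0.39 in AAV-V, then 0.80 ± 0.09 in AAV-GP73 and 1.16 ± 0.41 with the diet (SD, n = 3).

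**Figure D1:**
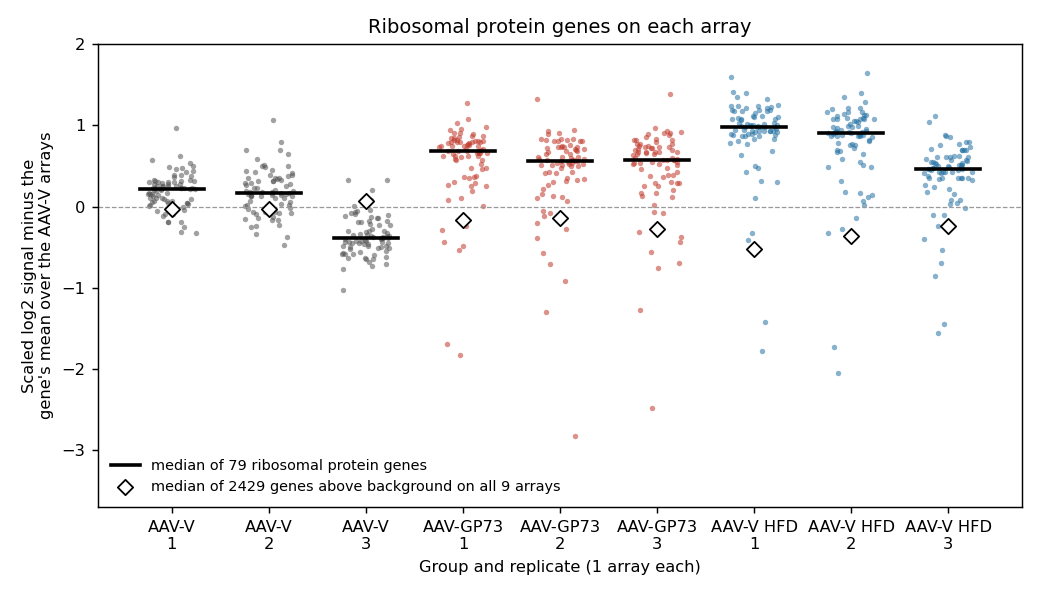
Scaled log2 signal of 79 ribosomal protein genes on each of the 9 arrays, minus the gene's mean over the AAV-V arrays. Each point is a gene, the bar the members' median and the diamond the median of 2429 genes above background on all 9 arrays; the bars of the AAV-GP73 and AAV-V HFD arrays lie between 0.47 and 0.98, those of AAV-V between -0.39 and 0.22.

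Between AAV-GP73 and AAV-V the members' median log2 difference was 0.63, or 1.55-fold, and 70 of the 80 members tested had a positive difference. The median of all genes tested was 0.60, close to that of the members, and 65.8% of them had a positive difference. Among the 2429 genes above background on all 9 arrays it was -0.18. The members scattered less than the table as a whole: the interquartile range of their differences was 0.42, against 1.84 over all genes tested and 2.16 over those above background on all 9 arrays. It was not particular to them, since 21 other mRNAs with a TOP tract had 0.36, and 0.46 in AAV-V HFD. Hence few reached a difference of 2-fold with an adjusted p under 0.05, called here. Of 80 members, 2 were called higher and 2 lower, where the background was 33.3% of all genes tested called higher and 19.3% lower, and 15.9% and 32.5% of those above background on all 9 arrays. Rpl27, a protein of the large subunit, and Rps4l, an autosomal relative of Rps4x, were the 2 called higher, and Rpl7 and Rps27l the 2 called lower. The Rps4l probe is annotated to NR_003634, a non-coding RefSeq transcript. By adjusted p alone, 29 members were higher and 3 lower, beside 40.1% and 21.5% of all genes and 24% and 36.5% of those above background on all 9 arrays. The 3 arrays of each group did not overlap for 51 members higher in AAV-GP73 and 3 lower, beside 44.8% and 22.9%.

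Rpl27 read 6.65, 6.24 and 6.30 in AAV-V, 7.67, 7.72 and 7.78 in AAV-GP73, and 7.57, 8.04 and 7.44 in AAV-V HFD. Every treated array exceeded every AAV-V array. The gene rose by 1.32 (SE 0.27, limma adjusted p = 0.00133), a 2.50-fold difference, in AAV-GP73 and by 1.28 (SE 0.27, limma adjusted p = 0.00249) in AAV-V HFD. Rps4l, whose parent Rps4x is X-linked, stayed under the background limit on all AAV-V arrays, where it measured 3.03, 3.15 and 3.52. It measured 3.52, 4.83 and 4.53 in AAV-GP73 and 3.53, 4.22 and 4.69 in AAV-V HFD. The measured differences were 1.06 in AAV-GP73 (limma adjusted p = 0.034) and 0.91 in AAV-V HFD (limma adjusted p = 0.0671). Set against the lowest signal above background on the AAV-V arrays, the means were 1.36-fold and 1.22-fold higher. With another background correction (normexp) both differences turned negative, at -0.54 and -0.69, so that neither fold is a firm lower bound. A member that entered the test only through its brighter groups had to differ in this direction.

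Behind these came Rpl4, which lines the exit tunnel of the nascent chain, Rps20 of the small subunit head, and Rps3a1 and Rps28 of the small subunit. Rpl4 read 7.31, 8.41 and 7.12 in AAV-V, 8.51, 8.54 and 8.58 in AAV-GP73, and 8.85, 8.74 and 8.41 in AAV-V HFD. The second AAV-V array touched the level of the treated groups while the others lay over 1 log2 unit below. Its difference was 0.93 in AAV-GP73 (limma adjusted p = 0.0322). Rps20 read 8.86, 8.01 and 8.28, then 9.41, 9.19 and 9.31, then 9.71, 9.78 and 9.07 in the same order of groups, without overlap between AAV-V and either treated group. Its difference in AAV-GP73 was 0.92 (limma adjusted p = 0.0215). Rps3a1 differed by 0.90 (limma adjusted p = 0.029) and Rps28 by 0.90 (limma adjusted p = 0.0141). All 4 lay under 2-fold.

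In AAV-V HFD, too, most members stood above AAV-V. Their median difference from AAV-V was 0.78, or 1.72-fold, against 0.37 over all genes tested and -0.35 over those above background on all 9 arrays. The interquartile range was 0.26, against 1.73 and 1.90, and 75 of 80 members were positive, against 60.1% of all genes. Called higher were 13 members, where the background was 24.8% of all genes tested, and called lower were 2, where it was 18.1%. Of the genes above background on all 9 arrays, 11.4% were called higher and 30.1% lower. Among the 13 were Rpl4, Rpl5, Rpl10a, Rpl27, Rpl32, Rpl36al and Rpl38 of the large subunit, and Rps3, Rps3a1, Rps4x, Rps20 and Rps27a of the small subunit. Of them, 10 had a log2 difference under 1.1, just past the 2-fold line, so that the count turns on small shifts. By adjusted p alone 49 members were higher and 2 lower, beside 32.4% and 21.7% of all genes and 22.1% and 36.9% of those above background on all 9 arrays. Groups did not overlap for 52 members higher and 3 lower, beside 33.9% and 23%. Both comparisons share the AAV-V arrays. Leaving out AAV-V replicate 3, the array with the lowest members, left 5 of the 15 calls in number, and leaving out AAV-V replicate 1 gave 30. Without AAV-V HFD replicate 1, 2 or 3 the number was 7, 10 or 32. Over all genes tested, calls in AAV-V HFD were 2474, and 2158 to 2746 with 1 array left out. In AAV-GP73 the 4 calls became 7 without AAV-V replicate 1, beside 3032 and 3202 over all genes.

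Rps3a1 and Rps20 followed Rpl27 in size in AAV-V HFD. Rps3a1 read 7.39, 7.54 and 6.64 in AAV-V, 8.27, 7.92 and 8.11 in AAV-GP73, and 8.78, 8.28 and 7.95 in AAV-V HFD. No treated array fell to the AAV-V range. It rose in AAV-V HFD by 1.14 (SE 0.32, limma adjusted p = 0.0116), and Rps20 rose by 1.14 (SE 0.31, limma adjusted p = 0.00932). Rpl5, which with Rpl11 carries the small ribosomal RNA of the large subunit and can bind Mdm2, read 6.31, 6.28 and 5.42, then 6.87, 6.83 and 6.83, then 7.41, 7.09 and 6.70. Its rise in AAV-V HFD was 1.06 (limma adjusted p = 0.0138), and in AAV-GP73 its difference was 0.84 (limma adjusted p = 0.0347). Rpl11 differed by 0.79 in AAV-V HFD (limma adjusted p = 0.0271) and by 0.69 in AAV-GP73 (limma adjusted p = 0.0402). Rps27a, which is made as a fusion with ubiquitin, rose in AAV-V HFD by 1.02 (limma adjusted p = 0.00904).

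Other members were read for their known roles. Rps6, the substrate of S6 kinase, read 6.86, 7.22 and 6.30 in AAV-V, 7.66, 7.45 and 7.54 in AAV-GP73, and 7.90, 7.68 and 7.48 in AAV-V HFD. The groups were apart, by 0.75 in AAV-GP73 (limma adjusted p = 0.0406) and 0.89 in AAV-V HFD (limma adjusted p = 0.0227). Rpl38, needed for translation of some homeotic mRNAs, read 8.10, 7.80 and 7.74, then 8.73, 8.71 and 8.76, then 8.81, 9.22 and 8.65. It differed by 0.85 (limma adjusted p = 0.0143) and rose by 1.01 in AAV-V HFD (limma adjusted p = 0.00747). Rpl32, often used as a reference gene, read 7.63, 7.51 and 7.58, then 8.46, 8.27 and 8.33, then 8.75, 8.70 and 8.26. It thus lay higher on every treated array, by 0.78 (limma adjusted p = 0.0178) and 1.00 (limma adjusted p = 0.00658). Rps3, at the mRNA entry channel, differed by 0.80 and 1.00, Rpl23a, at the tunnel exit, by 0.87 and 0.94, and Rps19, mutated in Diamond-Blackfan anaemia, by 0.49 (limma adjusted p = 0.19) and 0.92 (limma adjusted p = 0.0281) in AAV-GP73 and AAV-V HFD. Rpl10, which acts late in subunit joining, differed by 0.60 (limma adjusted p = 0.116) and 0.81 (limma adjusted p = 0.0456). Rps14, at the small subunit's platform, differed by 0.73 and 0.74, Rpl26 by 0.57 and 0.74, and Rpl41, the shortest member, by 0.30 and 0.54, all 3 with limma adjusted p above the threshold in both comparisons. Rpl13a, also used as a reference gene, read 8.88, 8.16 and 7.86, then 8.14, 8.03 and 7.87, then 8.40, 8.32 and 8.19. Its groups overlapped, with differences of -0.29 (limma adjusted p = 0.411) and 0.00 (limma adjusted p = 0.992).

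**Figure D2:**
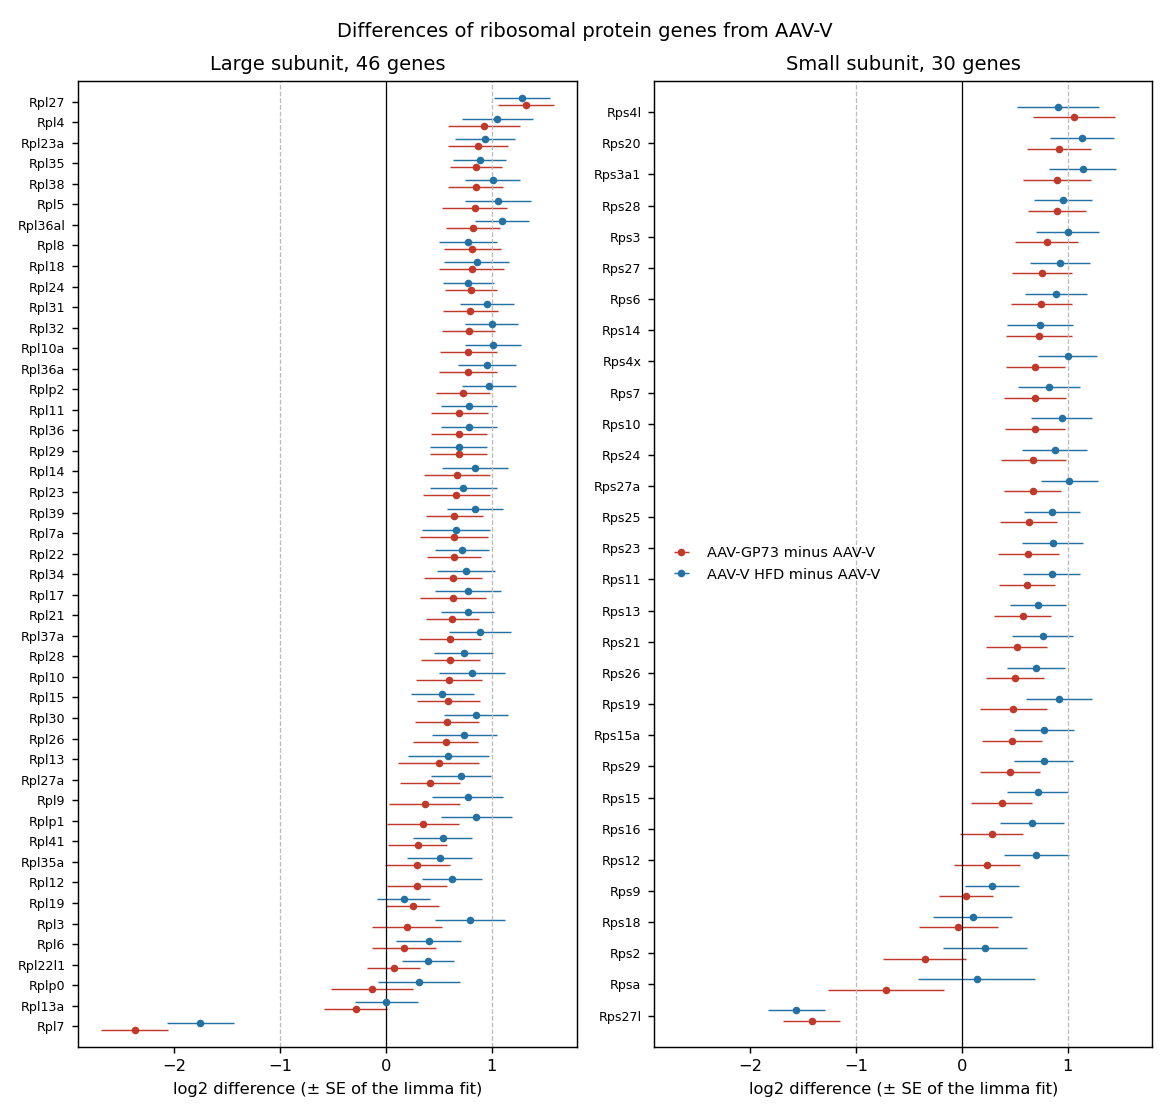
log2 difference from AAV-V of 76 of the 80 ribosomal protein genes tested, for AAV-GP73 (red) and AAV-V HFD (blue), with bars of ± 1 SE from the limma fit and dashed lines at 2-fold. Most points lie between 0 and the upper 2-fold line, and the quartiles over all 80 were 0.34 and 0.76 in AAV-GP73 and 0.66 and 0.92 in AAV-V HFD; Rpl7 and Rps27l lie below the lower line in both, and Rps4l is plotted at its measured value, which is no bound.

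Set directly against each other, AAV-GP73 and AAV-V HFD gave 0 called members of 80, beside 1.98% of all genes tested called higher in AAV-GP73 and 0.555% called lower. Past 2-fold with an unadjusted p under 0.05 by the methods' t-test were 0 members, beside 328 of the 5763 genes tested. The median difference, AAV-GP73 minus AAV-V HFD, was -0.21, with 8 of 80 positive, against 0.09 over all genes tested, of which 57.3% were positive. The direction turned with the scaling: set to the spike-in controls, the members' median was 0.16 with 69 of 80 positive, and that of all genes 0.46. The lowest were Rpsa at -0.86 (SE 0.55, limma adjusted p = 0.489), Rpl7 at -0.62 (SE 0.32, limma adjusted p = 0.375), Rpl3 of the peptidyl transferase region at -0.60 (SE 0.33, limma adjusted p = 0.42), Rps2 at -0.57 (SE 0.39, limma adjusted p = 0.527) and Rplp1 at -0.51 (SE 0.34, limma adjusted p = 0.514). Among the highest were Rps4l at 0.15, Rps27l at 0.14, Rpl19 at 0.08 and Rpl15 at 0.06. For 7 members AAV-GP73 lay wholly below AAV-V HFD, and for 0 wholly above, beside 8.68% and 15.3% of all genes.

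Both subunits had medians above AAV-V. In AAV-GP73 the 47 large subunit genes tested had a median difference from AAV-V of 0.64 and the 33 small subunit genes one of 0.62, and in AAV-V HFD the medians were 0.78 and 0.82. By adjusted p alone 20 of 47 large and 9 of 33 small subunit genes were higher in AAV-GP73. Beside them stood 40.1% of all genes tested and 24% of those above background on all 9 arrays. In AAV-V HFD it was 28 of 47 and 21 of 33, beside 32.4% and 22.1%. The mean of the large subunit genes minus that of the small on the same array was 0.00 ± 0.07 in AAV-V, then 0.10 ± 0.04 in AAV-GP73 and 0.04 ± 0.06 with the diet (SD, n = 3). It ran from -0.08 to 0.05 over the AAV-V arrays, from 0.08 to 0.15 over AAV-GP73 and from -0.03 to 0.09 over AAV-V HFD. All 3 AAV-GP73 arrays lay above the AAV-V range by less than 0.1 log2 units, and AAV-V HFD overlapped it; the difference between subunits was not tested. The mean log2 difference of large minus that of small subunit genes over all 80 was 0.08, and -0.11 when genes below background were kept.

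The stalk proteins Rplp0, Rplp1 and Rplp2 recruit the elongation factors. Rplp2 read 8.32, 8.05 and 7.90 in AAV-V, 8.83, 8.90 and 8.72 in AAV-GP73, and 9.02, 9.29 and 8.88 in AAV-V HFD. Both treated groups lay wholly above AAV-V, by 0.73 (SE 0.25, limma adjusted p = 0.0261) and 0.97 (SE 0.25, limma adjusted p = 0.00797). Rplp0, the base of the stalk, read 7.29, 7.75 and 6.45, then 7.17, 7.09 and 6.85, then 8.15, 7.35 and 6.92. Its groups overlapped throughout, with differences of -0.13 (SE 0.39, limma adjusted p = 0.784) and 0.31 (SE 0.39, limma adjusted p = 0.52). Rplp1 read 9.69, 9.35 and 8.55, then 9.67, 9.41 and 9.56, then 10.45, 10.11 and 9.61, giving 0.35 (limma adjusted p = 0.38) and 0.85 (limma adjusted p = 0.0498). Differences between these genes were not tested. Scaled to the spike-in controls, Rplp0 in AAV-GP73 stood at 1.54.

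Rpsa, which serves both in the small subunit and as a laminin receptor, was the most variable member. It read 9.27, 10.36 and 8.28 in AAV-V, 8.82, 8.39 and 8.55 in AAV-GP73, and 10.51, 9.37 and 8.45 in AAV-V HFD. Arrays of 1 group were up to 2 log2 units apart, and all groups overlapped. The differences were -0.72 (SE 0.55, limma adjusted p = 0.27) in AAV-GP73 and 0.14 (SE 0.55, limma adjusted p = 0.844) in AAV-V HFD. Rps2 of the mRNA entry channel behaved alike: 7.25, 7.51 and 6.23, then 6.70, 6.61 and 6.62, then 7.91, 7.14 and 6.60. Its differences were -0.35 (limma adjusted p = 0.448) and 0.22 (limma adjusted p = 0.656). In both of these genes the third array of AAV-V and of AAV-V HFD was the lowest of its group. The same held for the members' median, at -0.39 and 0.47 on these arrays. Across the 79 members the median SD within a group was 0.38 in AAV-V, then 0.09 in AAV-GP73 and 0.30 with the diet, where that of genes above background on all 9 arrays was 0.35, 0.24 and 0.30.

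Rpl7 and Rps27l were the members called lower, and for both the answer depended on the probe. Rpl7 is a protein of the large subunit, and Rps27l is a relative of Rps27 known as a target of p53. The probe sequences are printed, with those of Rpl27, because probes assigned to 1 gene read different stretches of it. They are given 5′ to 3′ with no part marked, whole (60 bases) or as the first 30 bases.
Rpl7 A_66_P120023 (first 30): ccccacgcccgaccagacattacgttttac
Rpl7 A_55_P2909620 (whole): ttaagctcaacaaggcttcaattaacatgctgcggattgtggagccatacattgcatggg
Rps27l A_51_P246907 (whole): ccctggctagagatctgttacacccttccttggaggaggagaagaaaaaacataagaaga
Rps27l A_51_P246903 (first 30): aaagccaggctcacagaaggctgttcattt
Rpl27 A_55_P2048684 (whole): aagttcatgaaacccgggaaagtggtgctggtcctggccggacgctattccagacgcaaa
Rpl27 A_55_P1956948 (first 30): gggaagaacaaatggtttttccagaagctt

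The brightest Rpl7 probe, A_66_P120023, lies at chr1:16091513-16091572 (mm9, per the files) and is annotated to an Ensembl transcript, ENSMUST00000141217. It read 10.64, 11.09 and 11.16 in AAV-V, 9.13, 8.14 and 8.48 in AAV-GP73, and 9.19, 8.91 and 9.52 in AAV-V HFD. All AAV-V arrays were above all others. It fell by 2.38 on the log2 scale (SE 0.32, limma adjusted p = 0.000161), 5.19-fold, in AAV-GP73 and by 1.75 (SE 0.32, limma adjusted p = 0.00134), 3.37-fold, in AAV-V HFD. Of 2 probes annotated to the RefSeq mRNA NM_011291, A_55_P2909620 at chr1:16092774-16092833 read 6.22, 6.31 and 5.39, then 6.89, 7.03 and 6.89, then 7.24, 7.03 and 6.74. Here the AAV-V arrays were the lowest, and the differences were 0.96 in AAV-GP73 and 1.03 with the diet. The other, A_55_P2126470 at chr1:16091865-16091924, gave 0.02 and 0.16, so that probes of the same mRNA also differed. The probes of Rpl7 thus spanned 3.34 log2 units in AAV-GP73.

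For Rps27l, the brighter probe A_51_P246907 (chr9:66793986-66794695, mm9) read 8.47, 8.31 and 8.89 in AAV-V, 6.86, 7.26 and 7.28 in AAV-GP73, and 7.14, 6.83 and 6.996 in AAV-V HFD. The AAV-V arrays lay over 1 log2 unit above every treated array. It fell by 1.42 (SE 0.27, limma adjusted p = 0.000943), 2.68-fold, in AAV-GP73 and by 1.57 (SE 0.27, limma adjusted p = 0.00101), 2.96-fold, in AAV-V HFD. The second probe of the same transcript, A_51_P246903 (chr9:66795486-66797176), read 6.80, 6.47 and 6.81, then 6.65, 6.75 and 7.07, then 6.95, 7.16 and 6.72. Its groups overlapped, with differences of 0.13 and 0.25. Scaled to the spike-in controls, the fall of the brighter probe in AAV-GP73 became a difference of 0.25.

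**Figure D3:**
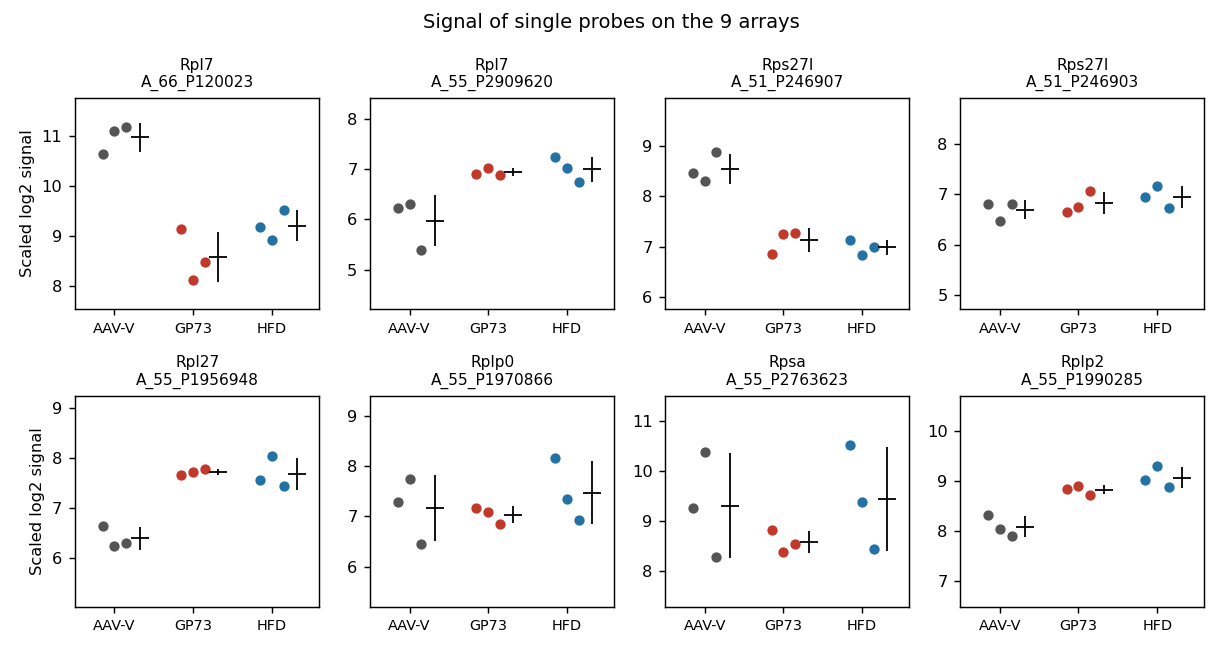
Scaled log2 signal on each of the 9 arrays for 8 probes; each point is an array, the cross is the group mean and the vertical line ± 1 SD (n = 3). Rpl7 A_66_P120023 and Rps27l A_51_P246907 are highest in AAV-V, whereas the other probes of these genes are not; Rpl27 and Rplp2 are apart from AAV-V in both treated groups, and Rplp0 and Rpsa overlap.

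Rpl27, the member with the largest rise, also differed by probe: A_55_P1956948 (chr11:101306763-101306822, mm9), which stands for the gene above, gave 1.32 and 1.28, and A_55_P2048684 (chr11:101304045-101304104) 0.58 and 0.45. Rps25, of the small subunit head, gave 0.63 and 0.85 with its brighter probe, while its other probe, A_66_P105222, gave -0.41 and -0.20.

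Such disagreement was the exception. Of the 54 members with several probes above background on all 9 arrays, the probes lay within 0.5 log2 units of each other for 42 in AAV-GP73 and 41 with the diet, and more than 1 unit apart for 4 and 5. The median span was 0.17 and 0.16. Over single probes, 135 of 151 were positive in AAV-GP73 and 143 of 151 in AAV-V HFD, with medians of 0.62 and 0.78, so that the shift of the members from AAV-V did not rest on the choice of probe. Over all 6593 probes tested, the medians were 0.64 and 0.41. With the brightest RefSeq probe, chosen after seeing the data, members had 0.63 against 0.81 over all genes in AAV-GP73. In AAV-V HFD it was 0.78 against 0.52. By their mm9 positions, 176 of the 184 probes lay on the chromosome of the named gene and 7 on another, among them those standing for Rps27 and Rps29. The probe standing for Rps2 lay at chr17:42864841-42864900, far from the gene's other probes near chr17:24857583-24857642. Ribosomal protein genes have many near-identical processed copies, and reads of these cannot be told apart from the gene's own by such probes.

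**Figure D4:**
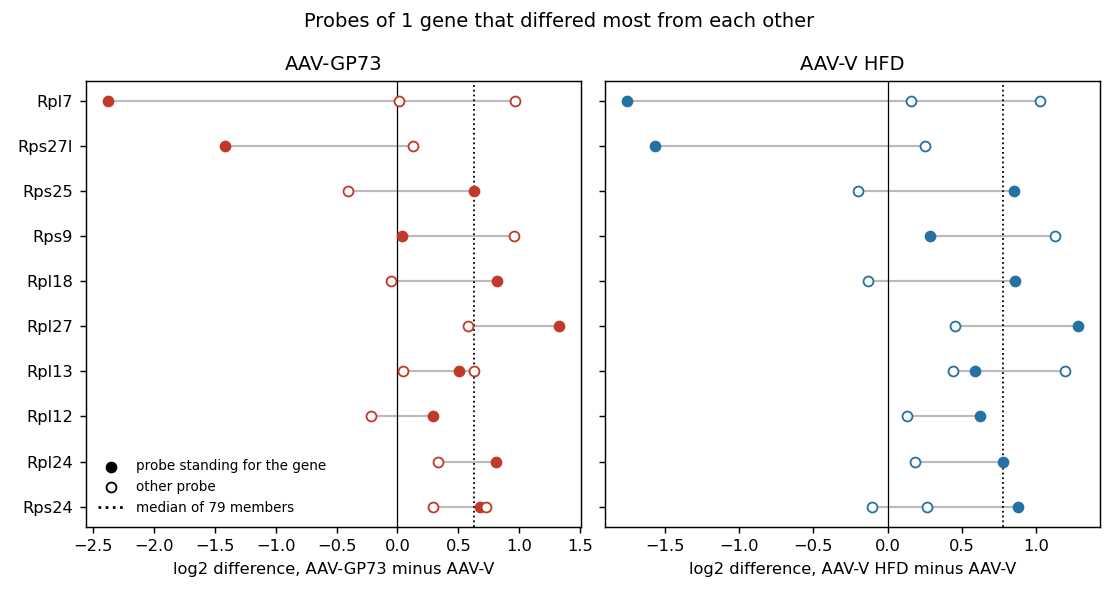
log2 difference from AAV-V of every probe above background on all 9 arrays, for 10 of the members whose probes differed most; filled points stand for the gene, open points are its other probes, the dotted line is the members' median (0.63 and 0.78). For Rpl7 and Rps27l the other probes lie at or above 0, up to 0.96 and 1.03 for Rpl7.

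Members with a relative of similar sequence were compared side by side. Rpl22 and its relative Rpl22l1 differed from AAV-V by 0.64 (limma adjusted p = 0.0475) and 0.07 (limma adjusted p = 0.807) in AAV-GP73, and by 0.72 (limma adjusted p = 0.0342) and 0.40 (limma adjusted p = 0.188) in AAV-V HFD. The sign of Rpl22l1 in AAV-GP73 turned under several scalings. Rpl36a and Rpl36al went together, at 0.77 and 0.83 in AAV-GP73 and at 0.96 and 1.09 in AAV-V HFD. Rps27 gave 0.76 (limma adjusted p = 0.0374) and 0.93 (limma adjusted p = 0.0176), on the opposite side of 0 from the brighter probe of Rps27l. Rps4x gave 0.69 and 1.00. The differences within a pair were not tested. Rpl10l, Rpl39l and Rpl3l, relatives known from testis or muscle, Rpl7l1, a relative of Rpl7, and the canonical Rpl37 stayed under the background limit on all 9 arrays, and no value is given for them.

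Both the size of the shift and the members' place relative to all genes depended on how the arrays were made comparable. With the 75th percentile taken over all probes, most of which are below background, the members' median in AAV-GP73 was 1.62 and that of all genes 1.59. There 70 members were called higher and 1 lower, beside 3718 and 401 of the 5763 genes tested. Scaled to 8 spike-in probes, the medians were 2.30 and 2.27. The members called were 77 higher and 0 lower, beside 4375 and 84 of all genes. In AAV-V HFD the members' median was 1.73 under the first and 2.08 under the second, against 1.32 and 1.67 for all genes, with 73 and 76 called higher and 0 lower. Of all genes, 3270 and 3728 were called higher there, and 181 and 76 lower. Background correction by normexp gave members 0.28 and all genes -0.60 in AAV-GP73, and 0.48 and -0.73 in AAV-V HFD. Quantile normalization put members below all genes in AAV-GP73, at 0.56 against 0.72. In the authors' own log2 table they lay below all genes in both, at 0.44 against 0.72 in AAV-GP73 and at 0.52 against 0.57 in AAV-V HFD. Because differences varied with the signal of the probe, members were also set beside genes whose probes had a similar signal, in 5 classes of equal size, which says nothing of abundance. The class of highest signal held 32 of the 79 and the next 35. In the former their median was 0.62 in AAV-GP73, against -0.18 over all genes of the class, and 0.83 in AAV-V HFD, against -0.43. In the latter it was 0.58 against 0.23, and 0.77 against 0.28.

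**Figure D5:**
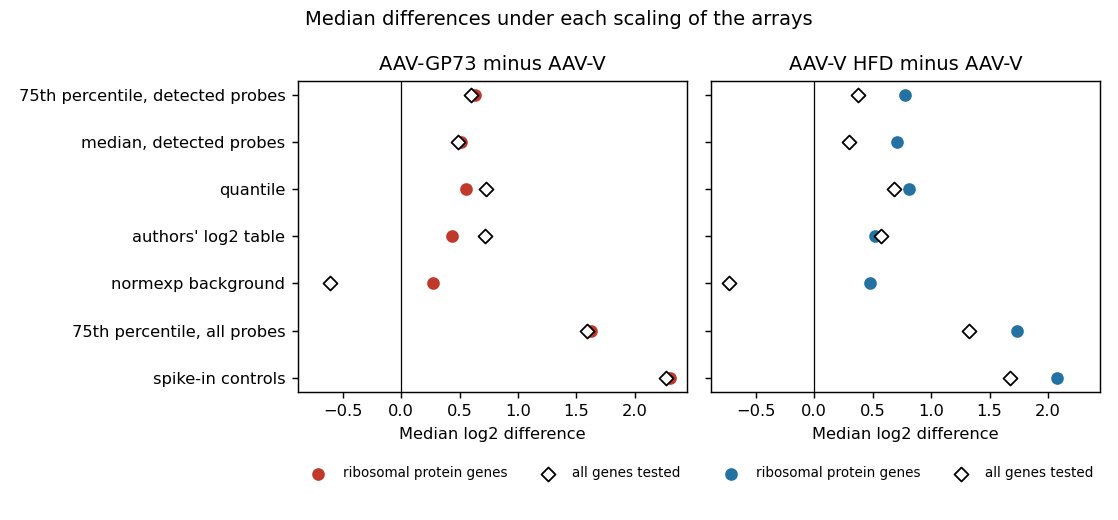
Median log2 difference from AAV-V of the 80 ribosomal protein genes (filled points) and of all genes tested (open diamonds) under 7 ways of scaling or background correction, AAV-GP73 on the left and AAV-V HFD on the right. The members' medians run from 0.28 to 2.30 in AAV-GP73 and from 0.48 to 2.08 in AAV-V HFD, and are positive under all 7.

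Genes of related function were read from lists by name. Their counts stand beside 33.3% of all genes tested called higher in AAV-GP73 and 24.8% with the diet, or 15.9% and 11.4% of those above background on all 9 arrays, and a gene tested only through its brighter groups had to differ. Of the subunit genes with other names, Fau, which is made as a fusion with a ubiquitin-like protein, differed by 0.75 in AAV-GP73 and by 0.96 in AAV-V HFD. Gnb2l1, which codes for the scaffold Rack1, differed by 0.77 and 0.94. Both lay within the band of the members and under 2-fold. Of the 21 other mRNAs known for a TOP tract, all tested, 9 were called higher and 0 lower in each comparison, with medians of 0.86 and 0.94. Of the 14 among them above background on all 9 arrays, 5 were called higher in AAV-GP73 and 7 with the diet, with medians of 0.84 and 0.98. Eef2, the translocation factor, rose by 1.73 (limma adjusted p = 0.000427) and 1.54 (limma adjusted p = 0.00151), whereas Eef1b2, an exchange factor subunit, gave -0.29 (limma adjusted p = 0.538) and 0.19 (limma adjusted p = 0.701). Mitochondrial ribosomal proteins, which form the separate ribosome of that organelle, were tested for 52 of 76, with 29 called higher and 0 called lower in AAV-GP73 and 27 and 1 in AAV-V HFD, but only 7 were above background on all 9 arrays, with 2 called higher in each and medians of 0.25 and 0.62. Proteasome subunits, tested as another complex of fixed make-up, had medians of 1.74 and 1.49 over 33 of 39. Of the 10 above background on all 9 arrays, 9 and 8 were called higher. Ribosome biogenesis factors were tested for 16 of 50, with 7 called higher and 1 called lower in AAV-GP73 and 5 and 1 in AAV-V HFD, and over the 4 above background on all 9 arrays the medians were -0.45 and -0.37. Of 18 regulators of these mRNAs 7 were tested, with 3 and 2 called higher. Of the 2 regulators above background on all 9 arrays, Rheb and Rps6kb1, 0 were called in either comparison; by limma's adjusted p alone Rps6kb1, which codes for S6 kinase, was higher in AAV-GP73, at 0.92 (limma adjusted p = 0.0447).

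Promoters of 64 of the 85 members were found in the RefSeq table, each 250 bases before to 50 after the start (GRCm38.p6), the first start listed for a symbol being used. A run of at least 7 pyrimidines within 20 bases of the start was present in 35 of 64 (54.69%), against 24.23% of the promoters of 27025 symbols, and a run of at least 10 in 20 of 64 (31.25%), against 7.25%. The letters CTTTCC on the gene's strand were found in 35.94% against 14.05%, CCGGAAG on either strand, the core bound by Ets factors such as Gabpa, in 39.06% against 9.12%, and AAGATGG on either strand, the core of the Yy1 motif, in 14.06% against 6.48%. GGGCGG, the letters of a GC box, on either strand was found in 60.94% against 35.91%, and TATAAA on the gene's strand in 9.38% against 8.88%. Within the members, the 34 tested ones with a run of at least 7 had medians of 0.63 in AAV-GP73 and 0.77 with the diet, and the 25 without 0.61 and 0.78. Rpl27, with the short run printed above, was the member that rose most on its probe in both. The starts are annotated ones and were not measured here, so a short run does not show that a TOP tract is absent.

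Some markers of other cells differed between the groups. Of the T and B cell list 1 of 7 was tested and of the neutrophil list 2 of 4, with 0 called in either comparison with AAV-V. The cholangiocyte list had 0 of 4 tested. The summed signal of the erythroid list ran over the AAV-V arrays from 391.98 to 976, over AAV-GP73 from 3426 to 17381 and over AAV-V HFD from 651 to 1132, with Hba-a1, Hba-a2 and Hbb-bt called higher in AAV-GP73. That of the Kupffer cell list, 4 of 7 tested, was 145 to 153, 169 to 224 and 200 to 211. The sums lay above AAV-V without overlap in both treated groups, but 5 of the 7 genes were above background on no AAV-V array. Adgre1, Cd68 and Vsig4 were not tested, and Clec4f was called higher in AAV-GP73. Singly, 3 of the 4 tested genes lay above AAV-V without overlap with GP73, beside 44.8% of all genes. With the diet 0 did, beside 33.9%, and 0 were called. The summed signal of the stellate cell list, 3 of 6 tested, was 146 to 276, 163 to 195 and 81.4 to 129. Of it, Dcn was called higher in AAV-GP73, at 1.21 (limma adjusted p = 0.00271), Des was called lower in both, at -2.14 (limma adjusted p = 0.00422) and -2.31 (limma adjusted p = 0.00393), and Reln was above background in AAV-GP73 alone. The endothelial list summed to 23.0 to 31.6, 26.9 to 39.5 and 9.67 to 24.5, with 1 of 5 tested, Clec4g, called higher in AAV-GP73. Clec4f and Clec4g were above background on 0 AAV-V arrays, so no fold is given for them. The hepatocyte list, where 2 genes passed as higher and 1 as lower with GP73, and 1 each way with the diet, summed to 18003 to 27540, 17827 to 25940 and 10850.4 to 19791. Their part in the members' differences was not tested.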

How the data were processed

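The deposited scanner files hold spot intensities (gProcessedSignal, already background-corrected by Feature Extraction). The submitters' processing notes name Feature Extraction 10.7, the file headers 12.0.3.1. The authors' normalized values, deposited as a log2 table, have medians of 0.799 to 0.801 and served as an alternative; their scale and normalization are not given in the sources used here. Each array has 59305 non-control spots of 56605 probes. Control and flagged spots were left out, saturated spots (0) would have been kept, spots of a probe were averaged, log2 values were shifted to a common 75th percentile over 2669 probes well above background on all 9 arrays, and the brightest probe stood for a gene name. limma 3.58.1 (R 4.3.3) was fitted over 5763 genes and all 9 arrays with group as the term and Benjamini-Hochberg adjustment over all genes; called means at least 2-fold and adjusted p under 0.05. The code was tested on simulated data.

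The members and lists were chosen with earlier results of these data known. Genes named were the 5 highest and 5 lowest members of each comparison, members with set roles or paralogues, those called where few were, those not above background, and those whose probes disagree; a few genes under this rule are not reported here. Replicate numbers did not pair arrays: deviations of same-numbered arrays correlated at -0.11 to 0.17. The number of arrays limits precision. Markers summed on the scaled linear signal are descriptions. Alternatives were other scalings, background correction (normexp, offset 50), filters, thresholds, probe choice, the methods' t-test and leaving out each array.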

Additional observations from a re-analysis of the deposited data

How the results depend on the processing

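Counts of members called moved most with the scaling. Calls over all genes tested follow each count in brackets, of 5763 unless stated. Against 4 (3032) in AAV-GP73, the count was 71 (4119) with the 75th percentile of all probes and 77 (4459) with spike-in controls. It was 9 (29567 of 37074) with no filter on dim genes and 2 (2962 of 5780) with the mean over a gene's probes. A threshold of 1.5-fold or none gave 32 (3546). With 1 array left out it was 3 to 7 (2790 to 3202 of 5793 to 6250). Against 15 (2474) in AAV-V HFD, the count was 73 (3451) with all probes, 76 (3804) with spike-in controls and 26 (2914 of 5755) with quantile normalization. It was 6 (2414) with the median of detected probes, 8 (884 of 5767) with normexp and 7 (2924 of 5755) in the authors' table. Over single probes it was 29 (2766 of 6593), and by the methods' t-test after Benjamini-Hochberg adjustment 8 (1557). An adjusted p under 0.01 gave 9 (1905), and a threshold of 1.5-fold or none 51 (3117). With 1 array left out it was 5 to 32 (2158 to 2746 of 5793 to 6126). Between AAV-GP73 and AAV-V HFD the count was 0 under all alternatives run. Calls over all genes ran there from 12 of 5755 in the authors' table to 341 of 5763 with spike-in controls.

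The members' median in AAV-GP73 was 1.62 with all probes, 2.30 with spike-in controls and 0.28 with normexp, and 0.41 to 0.71 with 1 array left out. In AAV-V HFD it was 1.73 with all probes, 2.08 with spike-in controls and 0.58 to 0.92 with 1 array left out. Between the treated groups it was 0.16 with spike-in controls and -0.35 to -0.10 with 1 array left out. The mean of large minus that of small subunit genes over the 80 members, 0.08 with GP73 and 0.03 with the diet, was -0.11 and -0.17 with no filter, 0.15 in AAV-GP73 with the brightest probe that has a RefSeq transcript, an alternative chosen after seeing the data, and -0.061 in AAV-V HFD in the authors' table. It was 0.05 to 0.10 and -0.0021 to 0.05 with 1 array left out. The cause was not tested.

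Signs of single genes turned as follows. With all probes, AAV-GP73 gave Rpsa 0.27, Rplp0 0.86, Rps2 0.64 and Rpl13a 0.70. With spike-in controls, AAV-GP73 gave Rps27l 0.25, Rpsa 0.95, Rplp0 1.54, Rps2 1.31 and Rpl13a 1.38. With the median of detected probes, Rpl22l1 was -0.044 in AAV-GP73 and Rpl13a -0.069 in AAV-V HFD. With quantile normalization, Rpl22l1 was -0.033 in AAV-GP73. With normexp, AAV-GP73 gave Rps4l -0.54, Rpl22l1 -0.48 and Rpl3 -0.030, and AAV-V HFD gave Rps4l -0.69 and Rpl22l1 -0.30. In the authors' table, AAV-GP73 gave Rpl22l1 -0.19 and Rpl3 -0.057, and AAV-V HFD gave Rps2 -0.12 and Rpl13a -0.10. With the RefSeq probe, Rpl7 was 0.96 and 1.03. With 1 array left out, AAV-GP73 gave ranges of -0.50 to 0.15 for Rplp0, -0.0079 to 0.16 for Rpl22l1 and -0.036 to 0.51 for Rpl3, and AAV-V HFD gave -0.22 to 0.29 for Rpl13a, -0.39 to 0.65 for Rpsa, -0.055 to 0.59 for Rplp0 and -0.17 to 0.52 for Rps2. Of the values of single genes under alternatives, 1333 kept direction and side of the threshold, 198 came to pass it, 97 lost it and 36 turned sign.

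Taking the replicate number as a block, although the numbers do not pair the arrays, gave 4, 15 and 0 member calls in the order above, as without it. Over all genes tested it gave 3033, 2484 and 83 calls, against 3032, 2474 and 146. Within slide 1 alone, AAV-GP73 against AAV-V gave the 2-group fit, while no slide term could be fitted for AAV-V HFD. Dim signals limit what can be said of Rps4l and of the 5 members under background.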
